A study of Mus musculus with 16 samples.

Results

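Myelin and oligodendrocyte lineage genes were examined in the medial prefrontal cortex (mPFC) of adult mice. The 30 genes were given as a list of precursor, differentiation and myelin genes, and all 30 were found by symbol among the 18424 genes of the expression table. The 16 samples came from male C57BL/6N mice at postnatal day (P) 120, in 4 groups of 4. WT mice were wild type and HT mice were heterozygous for an Arid1b allele truncated at exon 5. The ARID1B protein is a DNA-binding part of the SWI/SNF complex, which moves nucleosomes. The mutation was a CRISPR allele of a single mouse line, present in every cell of the animal rather than in oligodendrocytes alone. From P3 to P21 the dams drank 0.2% saccharin water, either alone (vehicle, Veh) or with 0.1 mg/ml fluoxetine hydrochloride (Flx), a serotonin reuptake inhibitor that reached the pups through the milk. All mice were given normal water after weaning, so the groups, named WT-Veh, HT-Veh, WT-Flx and HT-Flx, differed at P120 in genotype and in early treatment, not in current drug.

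Oligodendrocytes arise from precursor cells that persist in the adult brain, pass through a short newly formed stage and then wrap axons with myelin, a compacted, lipid-rich membrane that speeds conduction. The adult cortex holds little myelin compared with the white matter beneath it, and its oligodendrocytes continue to be added in adult life. The transcription factors Olig1, Olig2, Sox10, Nkx6-2 and Myrf act along this lineage, and mature cells make large amounts of a small set of sheath proteins and of the enzymes that build their lipids.

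As a view of the sequence near the start sites, the 250 bases before the start site were read from RefSeq promoter windows on GRCm38.p6, which covered 19 of the 30 members with 22 windows. Cldn11 is shown because it had the highest correlation with the other sheath genes among members with 1 window and the same annotated start in GENCODE, and Ermn, Mog and Enpp6 because they had the highest correlations among such members with a motif match. Capitals mark the motif searched, either strand, and the sequences run along the strand of the gene.
Cldn11, chr3:31149670-31149919, plus strand: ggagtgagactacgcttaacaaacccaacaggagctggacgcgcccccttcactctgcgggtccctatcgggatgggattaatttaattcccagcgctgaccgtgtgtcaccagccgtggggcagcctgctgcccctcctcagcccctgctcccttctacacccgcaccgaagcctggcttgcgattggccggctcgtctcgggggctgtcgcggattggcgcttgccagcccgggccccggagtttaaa
Ermn, chr2:58052865-58053114, minus strand: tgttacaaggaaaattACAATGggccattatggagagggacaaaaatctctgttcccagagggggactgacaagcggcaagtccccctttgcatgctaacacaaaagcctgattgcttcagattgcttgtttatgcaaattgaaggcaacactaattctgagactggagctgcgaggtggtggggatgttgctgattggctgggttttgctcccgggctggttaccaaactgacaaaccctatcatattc
Mog, chr17:37023399-37023648, minus strand: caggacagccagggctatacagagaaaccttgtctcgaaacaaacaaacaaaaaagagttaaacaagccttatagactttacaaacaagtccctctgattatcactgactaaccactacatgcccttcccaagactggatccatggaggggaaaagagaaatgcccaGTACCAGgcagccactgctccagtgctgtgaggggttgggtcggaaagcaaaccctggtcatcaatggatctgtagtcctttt
Enpp6, chr8:46986637-46986886, plus strand: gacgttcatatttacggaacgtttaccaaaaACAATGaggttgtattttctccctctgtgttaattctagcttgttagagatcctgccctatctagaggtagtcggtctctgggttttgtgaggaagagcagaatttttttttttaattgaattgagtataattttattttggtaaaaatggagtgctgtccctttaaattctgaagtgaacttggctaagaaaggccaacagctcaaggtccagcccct
A SOX-type motif, ACAAAG or ACAATG, was found in 10 of the 22 windows, from 9 of the 19 genes, and in 25.2% of all 32851 windows of the same length. A MYRF-type motif, CTGGCAC or CTGGTAC, was found in 4 windows, from Cnp, Mag and Mog, and in 5.93% of all windows. The match in Ermn and in Enpp6 is of the SOX type and that in Mog is of the MYRF type on the opposite strand, while the Cldn11 window held neither. These matches describe letters in the windows only.

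The 30 genes were measured well above the low end of the table. The lowest value of any member in any sample was 69.7 normalized read counts, for Enpp6 in WT-Veh 1. The highest value of a member was between 1.37 times its lowest over the 16 samples, for Olig1, and 3.83 times, for Enpp6, with a median of 1.95 times. Values are normalized read counts, that is, estimated reads per gene scaled by the authors in DESeq2. The depth of the libraries is unknown, and levels of different genes are not compared with each other here. Because the tissue was bulk cortex, fewer cells of the lineage and less RNA per cell cannot be told apart. The labels number the samples within a group, and p-values measure the spread between these samples. Fluoxetine was given to the dam, so the pups of a litter shared their treatment. Neither dam nor litter is named in the labels, so early treatment and litter cannot be told apart.

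Before the results, 2 features of the libraries need to be stated. The targeted gene Arid1b averaged 2368 ± 432 (SD, n = 4) in WT-Veh and 1795 ± 160.2 in HT-Veh, and 2159 ± 233 in WT-Flx and 1636 ± 61.0 in HT-Flx. Over both treatments its log2 change in HT was -0.39 (limma adjusted p = 0.0969, SE 0.080). The second feature is neighbouring tissue. The mean log2 level of 9 olfactory bulb markers was between 7.74 and 10.11 in 5 samples, namely WT-Veh 1, WT-Flx 1, 2 and 4, and HT-Veh 4, and between 4.71 and 5.67 in the other 11. No HT-Flx sample was among these 5, and 4 of the 5 were WT. Each comparison of the members below is given with all samples and without these 5. The mean of 9 neuronal markers stayed between 14.37 and 14.53 in all 16 samples, but single markers moved in opposite directions. Gad1 ran from 6091 to 19576 normalized read counts, highest in WT-Veh 1, and Camk2a from 74624 to 155834, lowest in WT-Veh 1. The flat mean therefore does not show that the neuronal content was constant.

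The mean log2 level of the 30 members, used here as a score, did not separate the groups. In WT-Veh it was 10.27, 10.60, 10.75 and 10.56 for samples 1 to 4. In WT-Flx it was 10.59, 10.78, 10.77 and 10.56. In HT-Veh it was 10.39, 10.55, 10.41 and 10.65, and in HT-Flx 10.86, 10.64, 10.16 and 10.32. The highest and the lowest sample of the whole series, HT-Flx 1 and HT-Flx 3, belonged to the same group, and every group overlapped every other. The SD within groups was 0.204.

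**Figure D1:**
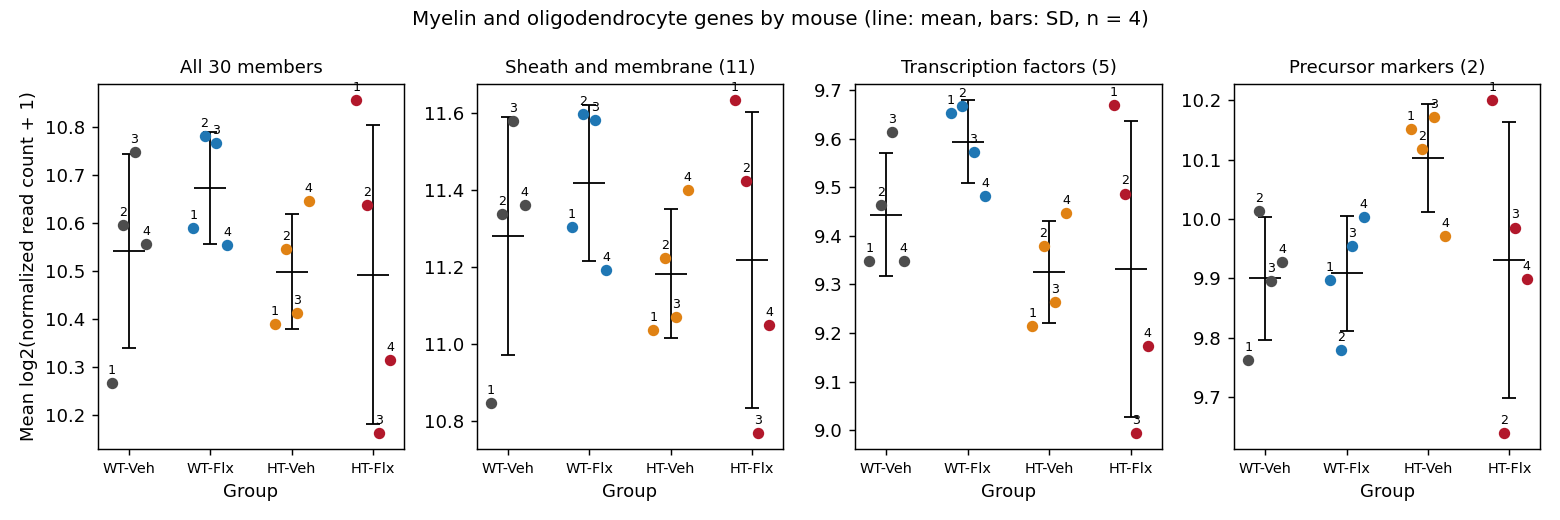
Mean log2(normalized read count + 1) of all 30 members, of the 11 sheath and membrane genes, of the 5 transcription factors and of the 2 precursor markers, in each of 16 mice (points, numbered within group), with the group mean and SD (line and bars, n = 4). HT-Flx spans the widest range in the first panel, from 10.16 to 10.86, and 3 of the 4 HT-Veh mice lie above every WT-Veh and WT-Flx mouse for the precursor markers.

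The 11 sheath and membrane genes had much the same order of samples. Mbp, whose product compacts the myelin membranes, was 30728, 45762, 55022 and 40667 normalized read counts in the WT-Veh samples and 44873, 49013, 50451 and 44890 in WT-Flx. It was 34280, 41980, 39439 and 48482 in HT-Veh and 56863, 47591, 32426 and 35930 in HT-Flx. The extremes of Mbp were WT-Veh 1 at the low end and HT-Flx 1 at the high end, and its levels overlapped in all 4 groups.

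Opalin, a glycoprotein of the myelin membrane, was 268, 341, 406 and 311 in WT-Veh and 365, 421, 385 and 246 in WT-Flx. It was 314, 327, 257 and 262 in HT-Veh and 451, 344, 158 and 232 in HT-Flx. It varied more than any other sheath gene, and again HT-Flx 1 was highest and HT-Flx 3 lowest.

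The remaining sheath genes are given as mean ± SD (n = 4), first for the WT groups (Veh, then Flx) and then for the HT groups in the same order. Mog, on the outermost myelin surface, was at 804 ± 116, 816 ± 160.3, 691 ± 77.6 and 696 ± 150.1. Mag, at the contact with the axon, was at 2408 ± 513, 2448 ± 366, 2222 ± 179 and 2412 ± 668. Mobp, a basic protein of compact myelin, was at 13098 ± 3298, 15383 ± 1910, 12013 ± 2309 and 11726 ± 3058. None of these groups was separated from another. Cnp, a phosphodiesterase of uncompacted myelin, was at 4598 ± 578, 4599 ± 395, 4237 ± 592 and 4174 ± 928. Cldn11, which forms the tight junctions of myelin, was at 1877 ± 333, 2128 ± 237, 1594 ± 308 and 1759 ± 445. Ermn, a cytoskeletal protein of mature cells, was at 1219 ± 294, 1341 ± 293, 1149 ± 134 and 1239 ± 339. The 4 groups overlapped for each of these 3 genes too. Mal, a proteolipid of myelin lipid rafts, was at 3470 ± 724, 4184 ± 528, 3222 ± 646 and 3462 ± 783. Tspan2, a tetraspanin, was at 2090 ± 375, 2304 ± 456, 2198 ± 299 and 2338 ± 573. Gjc3, a connexin, was at 999 ± 281, 1114 ± 254, 963 ± 129.7 and 1031 ± 229.

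Among the 5 lipid and metabolite enzymes, Aspa cleaves N-acetylaspartate from neurons into acetate for lipid synthesis. It was 417, 374, 438 and 332 in the WT-Veh samples, and 343, 549, 440.0 and 393 in WT-Flx. The HT-Veh values were 380.0, 356, 271 and 324, and those of HT-Flx were 422, 328, 223 and 220.5. The lowest values of Aspa were those of HT-Flx 3 and 4. The galactolipid enzyme Ugt8a was at 997 ± 216, 997 ± 207, 982 ± 99.4 and 1028 ± 280.3 in the groups as ordered above. Fa2h, which hydroxylates myelin fatty acids, was at 689.7 ± 152, 769.6 ± 106, 668 ± 62.4 and 662 ± 216. Both followed the sheath genes from sample to sample. Enpp2, which makes lysophosphatidic acid, was at 5763 ± 741, 5913 ± 797, 6241 ± 278 and 6387 ± 473. Car2, a carbonic anhydrase, was at 3538 ± 315, 3864 ± 99.3, 3433 ± 233 and 3722 ± 557.

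Of the 4 chaperone, receptor and transport proteins, the small heat shock protein Cryab was 1579, 1406, 1542 and 1470 in WT-Veh and 1638, 1374, 1551 and 1539 in WT-Flx. It was 1189, 1248, 1177 and 1402 in HT-Veh and 1479, 1354, 1313 and 1257 in HT-Flx. All 4 HT-Veh samples lay below all 4 WT-Veh samples, although the nearest values, 1402 and 1406, almost touched. Apod, a lipid-binding lipocalin, was 5966, 2996, 3112 and 2605 in WT-Veh and 4296, 4411, 3532 and 6736 in WT-Flx. It was 3341, 3522, 3299 and 4345 in HT-Veh and 3841, 3140, 2396 and 2634 in HT-Flx. Apod was from 4296 to 6736 in the 5 samples rich in olfactory bulb markers and from 2396 to 3841 in the 11 others. How many of all genes separated these samples in this way was not computed. Gpr37, a receptor of maturing cells, was at 1198 ± 259, 1270 ± 261, 1238 ± 55.9 and 1242 ± 334 in the 4 groups in the order above. The iron carrier Trf was at 4081 ± 294, 4073 ± 509, 3858 ± 508 and 3494 ± 1169.

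The 5 transcription factors fell into members that followed the sheath genes and members that did not. Sox10, required for myelin gene expression, was 853, 831, 968 and 862 in WT-Veh against 1068, 1141, 1032 and 1104 in WT-Flx. It was 743, 814, 742 and 969 in HT-Veh against 1081, 1002, 718 and 683 in HT-Flx. Every WT-Flx sample was above every WT-Veh sample. Myrf, which drives the step to the myelinating cell, was at 1122 ± 361, 1271 ± 289, 1129 ± 108 and 1189 ± 409 in the 4 groups. Olig1, expressed from the precursor onwards, was at 1965 ± 236, 1968 ± 188, 1764 ± 119 and 1688 ± 98.4. The means of Olig1 were lower in both HT groups, with overlap. Olig2, which specifies the lineage, was at 532 ± 33.2, 573 ± 55.5, 479.7 ± 58.8 and 505 ± 82.8. Nkx6-2, a homeobox factor of later stages, was at 166 ± 13.8, 183 ± 38.6, 141 ± 19.0 and 138 ± 39.0.

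The precursor markers gave another order of groups. Cspg4, the NG2 proteoglycan, was 557, 566, 570.3 and 534 in WT-Veh and 661, 463, 575 and 657 in WT-Flx. It was 691, 666, 621 and 591 in HT-Veh and 656, 452, 586 and 521 in HT-Flx. All HT-Veh samples exceeded all WT-Veh samples, and HT-Flx overlapped both. Pdgfra, the growth factor receptor of precursors, was 1353, 1884, 1588 and 1774 in WT-Veh and 1868, 1851, 2141 and 1701 in HT-Veh. It was at 1587 ± 149 in WT-Flx and 1752 ± 285 in HT-Flx.

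Of the 3 markers of newly formed cells, the receptor Gpr17 was 700.5, 917, 1038 and 1109 in WT-Veh and 846, 874, 1146 and 1214 in WT-Flx. It was 827, 1005, 1182 and 1143 in HT-Veh and 1195, 1166, 1379 and 1311 in HT-Flx. Its 2 highest samples were HT-Flx 3 and 4, which were low in most myelin genes. Bcas1, a marker of cells starting to myelinate, was at 2886 ± 785, 3325 ± 208, 2611 ± 189.7 and 2649 ± 665 in the 4 groups. Enpp6, a phosphodiesterase, was at 151 ± 56.1, 178 ± 57.7, 182 ± 68.8 and 178 ± 62.9.

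**Figure D2:**
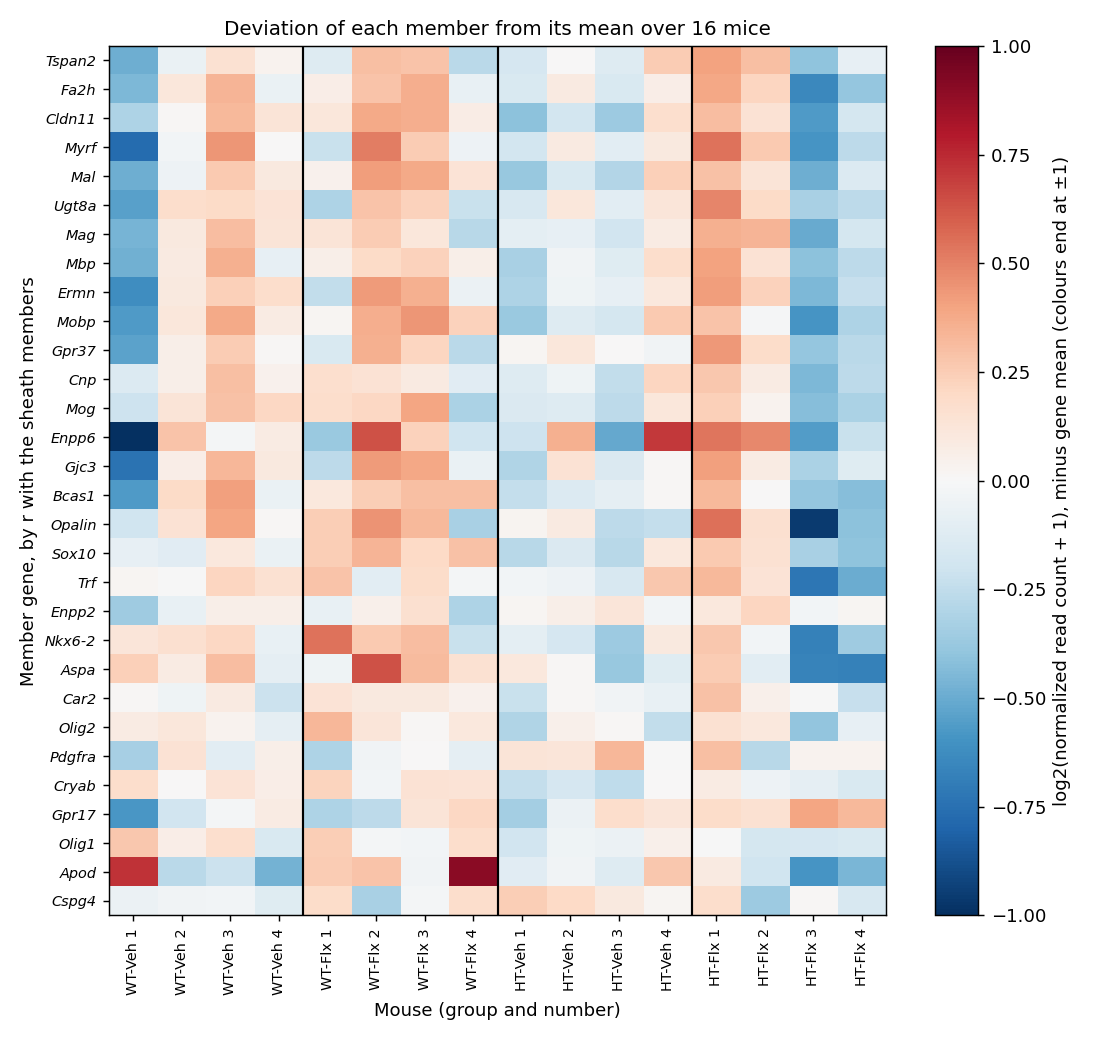
Deviation of log2(normalized read count + 1) from the gene's mean over 16 mice (colour), for the 30 members (rows, ordered by correlation with the sheath genes) and the mice (columns, by group). The upper rows largely change colour together, with WT-Veh 1 and HT-Flx 3 low and HT-Flx 1 high. The lower rows, Olig2 to Cspg4, follow this less closely, although HT-Flx 1 exceeds HT-Flx 3 in each of them except Gpr17.

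In HT-Veh compared with WT-Veh, which gives the genotype difference without the drug, 20 of 30 members were lower and 10 higher, and none passed the limma test at an adjusted p of 0.05. Of all 16832 genes tested, 0.0178% passed. The median log2 change of the members was -0.07, against 0.01 over all genes, of which 51.8% were higher. By role, 10 of 11 sheath genes and 4 of 5 transcription factors were lower, and both precursor markers were higher. The smallest p-values were those of Cryab, with a log2 change of -0.26 (limma adjusted p = 0.884, SE 0.077), and Cspg4, with 0.20 (limma adjusted p = 0.922, SE 0.079). At an unadjusted p under 0.05 these were the only 2 members of 30, while 4.88% of all genes were called in this way. The same 2 members had no overlap between the groups, as did 3.84% of all genes.

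The genotype difference in vehicle-treated mice depended on which samples were included. Without the samples rich in olfactory bulb markers, which left 3 mice a group, the members' median log2 change was -0.21, and 4 of 30 were higher. The samples left out, WT-Veh 1 and HT-Veh 4, had the lowest score of WT-Veh, 10.27, and the highest of HT-Veh, 10.65. Their removal by itself lowers the score difference. Of the members, 14 were lower and 2 higher at an unadjusted p under 0.05, and 10.9% of all genes were called. The 14 were Mbp, Mog, Mag, Mobp, Cnp, Cldn11, Ermn, Mal, Gjc3, Ugt8a, Cryab, Sox10, Trf and Bcas1, and the 2 were Apod and Cspg4. None passed after adjustment, the smallest adjusted p being 0.0849 for Cldn11. In these 6 mice Cldn11, picked by its p-value, was 1821, 2255 and 1974 in WT-Veh and 1356, 1587 and 1404 in HT-Veh. With all 8 mice its levels overlapped between the groups. Leaving out WT-Veh 1 alone gave a score difference of -0.14 with 5 members higher, and leaving out WT-Veh 3 alone one of 0.03 with 18 members higher, against -0.04 and 10 with all samples. With the mean of the olfactory bulb markers as a covariate and all 8 mice in the fit, the score difference was -0.06 with 9 members higher. Pdgfra and Cspg4 were then higher and Cryab lower at an unadjusted p under 0.05, 3 of 30 members, against 10.5% of all genes.

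WT-Flx compared with WT-Veh gives the difference with the early drug in wild-type mice. Here 28 of 30 members were higher. Their median log2 change was 0.12, against 0.00 over all genes, of which 49.8% were higher. No member passed the limma test after adjustment, nor did any other gene (0% of 16833). Sox10 had a log2 change of 0.31 (limma adjusted p = 0.9997, SE 0.086) and Mal one of 0.29 (limma adjusted p = 0.9997, SE 0.16). Sox10 was the only member with an unadjusted p under 0.05, called for 4.2% of all genes, and the only member with no overlap, found for 2.89%. Without WT-Veh 1, the sample with the lowest sheath gene levels in its group, 16 of 30 members were higher and the score difference was 0.04 in place of 0.13. The log2 change of Mal was then 0.14. Markers of striatal neurons were higher in WT-Flx too, 6 of 6, with a median log2 change of 0.50. With their mean as a covariate, an alternative chosen after seeing the data, 20 members were higher and the score difference was 0.04.

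The olfactory bulb markers were higher in WT-Flx as well, 9 of 9, with a median log2 change of 1.39. With their mean as a covariate the members moved the other way from the striatal fit, with 29 of 30 higher and a score difference of 0.23. The log2 change of Mal was 0.43 and that of Sox10 0.30. At an unadjusted p under 0.05, 11 members were higher, namely Mbp, Mobp, Cldn11, Ermn, Mal, Tspan2, Gjc3, Fa2h, Sox10, Bcas1 and Enpp6, against 6.08% of all genes, and the smallest adjusted p was 0.798. Without the samples rich in these markers WT-Flx was left with 1 mouse, assumed to vary like the others. Then 25 members were higher with a score difference of 0.13, and Mobp, Mal, Tspan2 and Apod were higher at an unadjusted p under 0.05, against 9.44% of all genes.

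HT-Flx compared with HT-Veh gives the difference with the early drug in heterozygotes. Of the members, 15 were higher and 15 lower, and the median log2 change was 0.00. No member and no other gene passed after adjustment (0% of 16814). Gpr17 had a log2 change of 0.29 (SE 0.11) and Apod one of -0.29 (SE 0.14), each with a limma adjusted p of 1.00. Gpr17 alone had an unadjusted p under 0.05, against 3.07% of all genes, and no member was without overlap, against 1.99%. The direction of the members hung on single mice. Without HT-Flx 1, 4 members were higher, without HT-Flx 2, 7 were, and without HT-Flx 3, 24 were. The log2 change of Gpr17 was 0.19 without HT-Veh 1, and that of Apod was -0.19 without HT-Flx 3. Gpr17 no longer had an unadjusted p under 0.05 without HT-Veh 1, HT-Veh 2, HT-Flx 3 or HT-Flx 4, or with all 4 groups in the fit. Without HT-Veh 4, the one sample of these 2 groups that was rich in olfactory bulb markers, 21 members were higher and the score difference was 0.04 in place of -0.01.

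**Figure D3:**
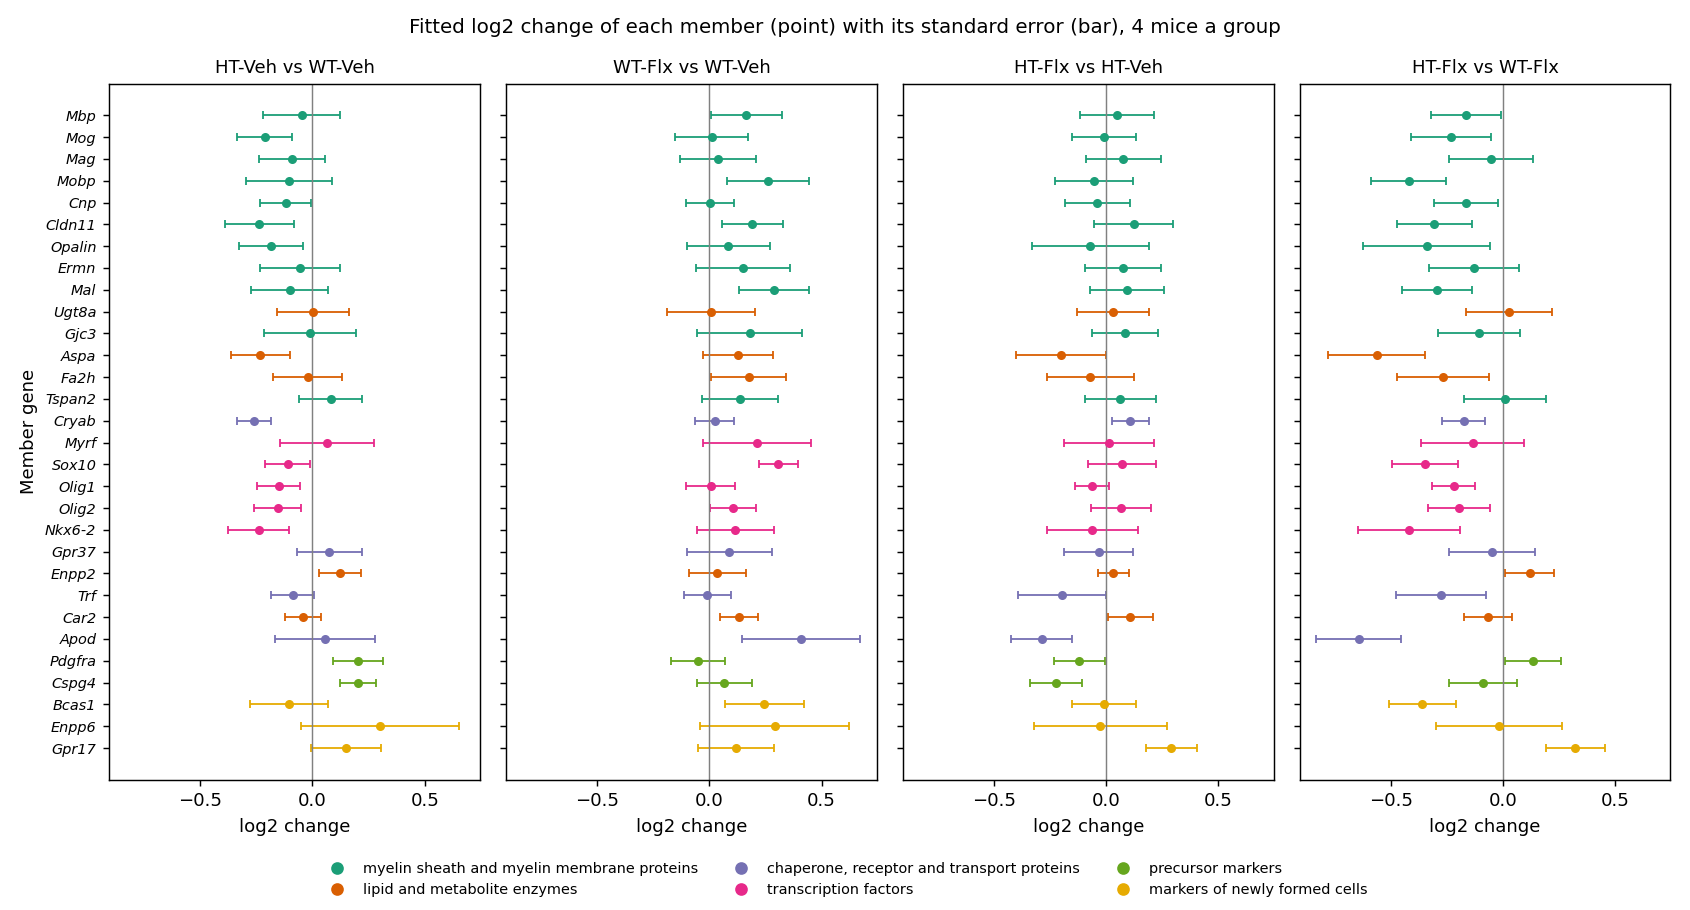
Fitted log2 change (point) and standard error (bar) of each member, coloured by role, in the 4 pairwise comparisons, with 4 mice a group. Most members lie right of 0 in WT-Flx vs WT-Veh (28 of 30) and left of 0 in HT-Flx vs WT-Flx (25 of 30), and none passed the test after adjustment.

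In HT-Flx compared with WT-Flx, the genotype difference after the drug, 25 of 30 members were lower, with a median log2 change of -0.17 against 0.01 over all genes, of which 51.6% were higher. No member passed after adjustment, and 0.0417% of 16788 genes did. All 5 transcription factors, 10 of 11 sheath genes and all 4 chaperone, receptor and transport proteins were lower. At an unadjusted p under 0.05, Apod, Aspa, Mobp, Bcas1, Sox10 and Olig1 were lower and Gpr17 higher, 7 of 30, against 10.4% of all genes. The log2 change of Apod was -0.64 (limma adjusted p = 0.335, SE 0.19) and that of Aspa -0.56 (limma adjusted p = 0.414, SE 0.22). No member was without overlap, against 5.83% of genes.

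The WT-Flx group held 3 of the 5 samples rich in olfactory bulb markers, and the summed level of these 9 markers ran from 803 to 10917 normalized read counts in WT-Flx and from 647 to 815 in HT-Flx. With their mean as a covariate the log2 change of Apod was -0.02. That of Aspa was -0.48, and 28 of 30 members were lower. No member then had an unadjusted p under 0.05, against 2.19% of all genes. Without these samples WT-Flx was left with 1 mouse, assumed to vary like the others, and 28 of 30 members were lower, with a score difference of -0.27 in place of -0.18. The log2 change of Apod was -0.26, and again no member had an unadjusted p under 0.05, against 2.52% of all genes. HT-Flx 1 had the highest score of its group, 10.86, so leaving it out lowers the group mean. Without it, 13 members were lower and 1 higher at an unadjusted p under 0.05, against 12.2% of all genes. The smallest limma adjusted p was then 0.237, for Bcas1. Over the 20 alternatives run, the number of members at that unadjusted level ran from 0 to 14. The number of members higher, 5 with all samples, was 3 without WT-Flx 1, WT-Flx 4 or HT-Flx 1, 8 without WT-Flx 2, 9 without HT-Flx 4 and 11 without HT-Flx 3. With the striatal marker mean as a covariate it was 10 and the score difference was -0.06.

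Over both treatments, 22 of 30 members were lower in HT than in WT, with a median log2 change of -0.14 against 0.00 over all genes, and none passed after adjustment. Of 17567 genes, 0.0398% passed. Cryab had the smallest p, with a log2 change of -0.22 (limma adjusted p = 0.244, SE 0.057), and its level ran from 1374 to 1638 in the 8 WT mice and from 1177 to 1479 in the 8 HT mice. Aspa had a log2 change of -0.40 (limma adjusted p = 0.342, SE 0.14). At an unadjusted p under 0.05, Cryab, Aspa, Olig1, Nkx6-2, Sox10 and Cldn11 were lower and Gpr17 was higher, against 11.9% of all genes, so that 7 of 30 members compares with a background that is itself high. Without the samples rich in olfactory bulb markers, 9 members were lower at that level, namely Mog, Mobp, Cldn11, Ermn, Mal, Gjc3, Cryab, Nkx6-2 and Bcas1, against 6.39% of all genes. None was higher, and the smallest adjusted p was 0.288. The score difference was -0.22 without these samples and -0.11 with all, and it was -0.06 without HT-Flx 3. Without the samples rich in olfactory bulb markers, only WT-Flx 3 remained of its group. Its score of 10.77 lay above the median of 10.57 over all samples.

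Over both genotypes, 24 of 30 members were higher after fluoxetine, with a median log2 change of 0.06. No gene of the table passed (0% of 17567), and no member had an unadjusted p under 0.05, against 3.11% of all genes. The smallest p-values were those of Sox10, with a log2 change of 0.19 (SE 0.095), and Gpr17, with 0.21 (SE 0.11), each with a limma adjusted p of 0.9997. The score difference, 0.06 with all samples, varied with single mice. It was 0.01 without HT-Flx 1, with 18 members higher, 0.02 without WT-Veh 1, with 16 higher, and 0.12 without HT-Flx 3, with 26 higher. Without the samples rich in olfactory bulb markers it was 0.07, with 22 members higher.

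The interaction is the fluoxetine change in HT minus that in WT. It was below 0 for 26 of 30 members, with a median of -0.11, and no gene passed (0% of 17567). Apod was the only member with an unadjusted p under 0.05, against 4.29% of all genes, with an interaction of -0.70 (limma adjusted p = 0.998, SE 0.32). Cspg4 followed with -0.29 (limma adjusted p = 0.998, SE 0.17). Without WT-Veh 1 the interaction was above 0 for 16 members, and without HT-Flx 3 for 15. Without the samples rich in olfactory bulb markers it was above 0 for 10 members, and that of Apod was -0.48. With the mean of those markers as a covariate the interaction of Apod was -0.26, and no member passed after adjustment.

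What the members shared most was their variation from mouse to mouse within groups. After removing group means, the 55 pairs of sheath genes had a median Pearson r of 0.878 over the 16 samples, from 0.651 to 0.984. All 435 pairs of members had a median of 0.550. Against the mean of the sheath genes, 16 members had an r over 0.8, led by Tspan2 (0.975), Fa2h (0.965), Cldn11 (0.962) and Myrf (0.961). In the whole table, 0.433% of 17567 genes had an r of at least 0.8 and the median was 0.012. These correlations describe samples that share a dissection, a library and a normalization.

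Within each role, members differed in how closely they followed the sheath genes. Of the transcription factors, Myrf (0.961), Sox10 (0.744) and Nkx6-2 (0.670) followed them, Olig2 (0.348) less so, and Olig1 (-0.10) not. Of the enzymes, Ugt8a had an r of 0.942, Enpp2 0.701, Aspa 0.613 and Car2 0.445. Gpr37 (0.922) and Trf (0.729) stood apart from Cryab (0.243) and Apod (-0.15), and Bcas1 (0.851) and Enpp6 (0.879) from Gpr17 (0.172). Both precursor markers were low, Pdgfra at 0.274 and Cspg4 at -0.22. HT-Flx 1 and HT-Flx 3 were the 2 samples at the ends of the member score. HT-Flx 1 was the higher for 29 of 30 members, and Gpr17 was higher in HT-Flx 3. Because the samples were picked by the mean of these same members, a high count follows largely from that choice.

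**Figure D4:**
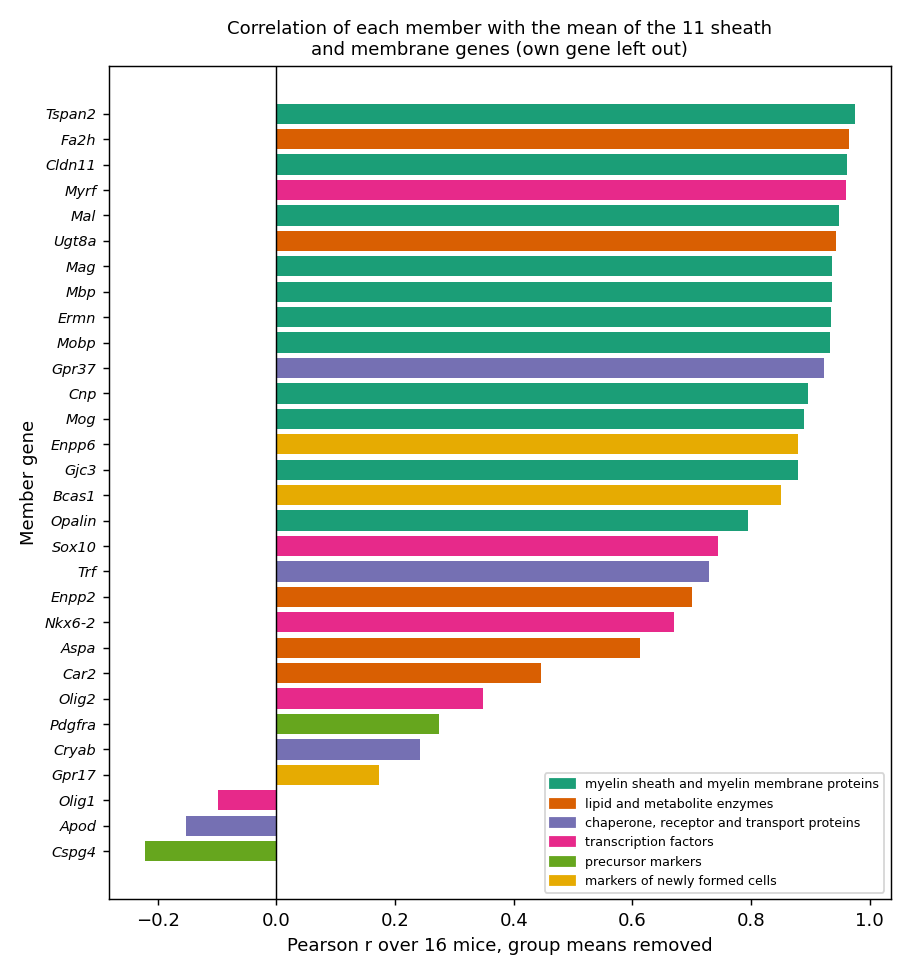
Pearson r over 16 mice, group means removed, between each member and the mean of the 11 sheath and membrane genes (own gene left out), coloured by role. The bars run from 0.975 for Tspan2 to -0.22 for Cspg4, with 3 members below 0.

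Genes outside the list that followed the sheath mean most closely, among those with a mean of at least 100, were Ttyh2 (r = 0.979), Tmem88b (0.968), Plekhh1 (0.967), Prr18 (0.943), Il33 (0.937), Pde8a (0.937) and Adamts4 (0.924). Ttyh2 ran from 525 to 870.3 normalized read counts over the 16 samples and Il33 from 769 to 1401.

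The other genes of the lineage gave much the same picture. The mean of 34 further oligodendrocyte and myelin genes followed the member score with r = 0.981 (Spearman rho = 0.979, and r = 0.969 without the 2 samples farthest from the median). Of these 34, 26 were lower in HT-Veh than in WT-Veh, 26 were higher in WT-Flx than in WT-Veh, 18 were higher in HT-Flx than in HT-Veh and 29 were lower in HT-Flx than in WT-Flx, and none passed in any of these comparisons. Of 10 further precursor genes, 9 were higher in HT-Veh than in WT-Veh, with a median log2 change of 0.08, and 6 were higher in HT-Flx than in WT-Flx. None of these passed either, and the counts for both lists are for all samples, those rich in olfactory bulb markers included.

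Markers of striatal neurons, which lie beneath the frontal cortex next to white matter, varied with the members. The mean log2 level of 6 such markers was 7.81, 9.07, 9.84 and 8.82 in the WT-Veh samples and 9.77, 9.43, 7.82 and 8.70 in the HT-Flx samples. In both groups this is the order of the member score. It was 9.90, 9.88, 8.87 and 9.01 in WT-Flx and 9.04, 8.60, 7.998 and 10.56 in HT-Veh, where the orders differ. Over 16 samples with group means removed, r with the member score was 0.755 (Spearman rho = 0.788), and 0.719 without HT-Veh 4 and HT-Flx 3, the samples farthest from the median. The sheath genes alone gave 0.767 and the precursor markers -0.15. The summed level of the 6 markers ran from 3337 to 8737 in WT-Veh, 4004 to 13741 in HT-Veh, 5127 to 9586 in WT-Flx and 3911 to 7934 in HT-Flx, and none was at 0 in any sample. Their part in the differences between groups was not tested beyond the covariate fits given above.

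**Figure D5:**
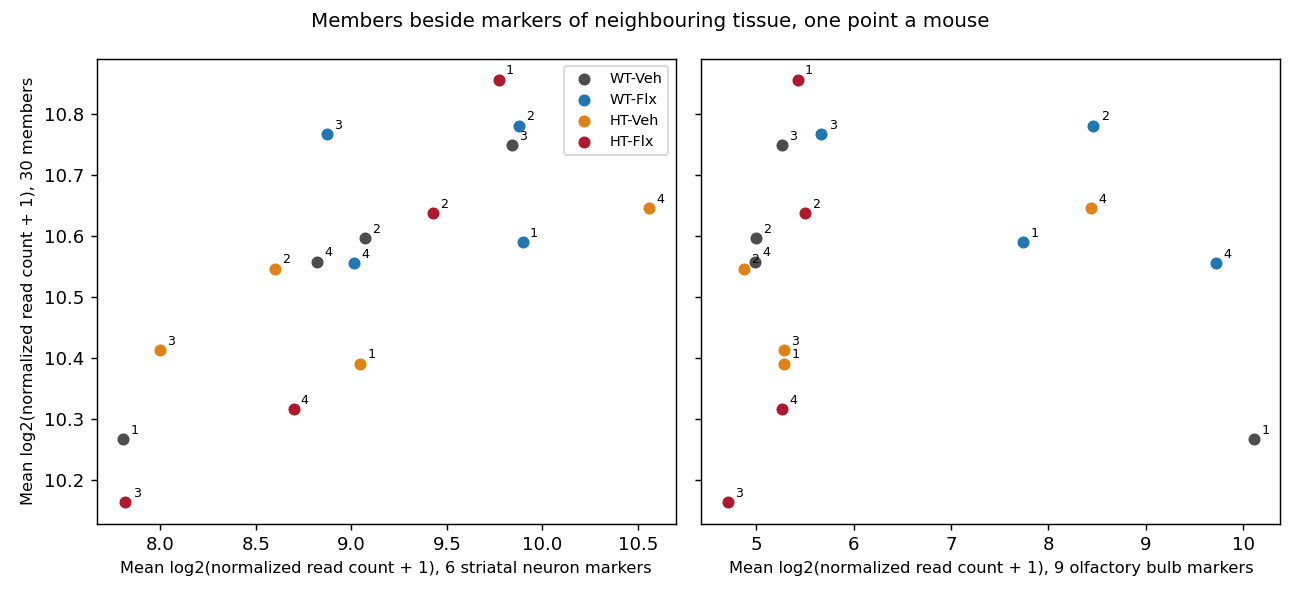
Mean log2(normalized read count + 1) of the 30 members against that of 6 striatal neuron markers (left) and of 9 olfactory bulb markers (right), 1 point a mouse, coloured by group and numbered within group. The left panel rises from WT-Veh 1 and HT-Flx 3 at the lower left, and the right panel falls into 5 mice above 7.7 and 11 below 5.7 with no common trend.

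For the other cell types, r with the member score over the same 16 samples was 0.316 for 9 neuronal, 0.242 for 9 astrocyte, 0.149 for 5 choroid plexus, -0.04 for 9 endothelial and mural, -0.11 for 10 microglial and -0.27 for 6 meningeal fibroblast markers. Spearman rho was 0.347, 0.185, 0.171, -0.07, -0.11 and -0.45 in that order. Without the 2 samples farthest from the median of each list, r was 0.371, 0.318, 0.01, -0.23, 0.09 and -0.65. No correlation is given for the olfactory bulb markers, since the samples formed separate clusters. In the 5 samples rich in these markers the median level was 1.40 times that of the other 11 for Apod, 1.28 times for Sox10, 1.18 times for Mobp and 1.17 times for Olig1, and 0.763 times for Gpr17 and 0.782 times for Ugt8a. Since 4 of these 5 samples were WT, genotype and neighbouring tissue cannot be told apart in these ratios. Such ratios were not computed for all genes. The part of this tissue in the differences between groups was not tested beyond the alternatives given.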

How the data were processed

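RNA from the mPFC of 16 mice was sequenced by the authors as stranded poly-A libraries. Reads were quantified with Salmon (version 1.1.0) on GRCm38, imported with tximport and normalized in DESeq2 (version 1.30.1), as named in the submitters' processing notes and the study's methods. The deposited signal is a normalized read count, not a whole number, so the sequencing depth is unknown and no interval that needs it is given. Of 18424 genes, 18411 were matched to a symbol.

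Log2(value + 1) was compared between groups with limma (version 3.58.1 under R 4.3.3, with a trended prior), keeping genes that reached 10 in 4 or more of the fitted samples, with Benjamini-Hochberg adjustment over all genes tested and a threshold of 0.05. Such a log2 change understates changes of low genes. Pairwise fits used the 8 samples compared. The fit over both treatments had treatment as a covariate, the fit over both genotypes had genotype, and these fits and the interaction used all 16 samples. The fit was tested on simulated data.

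The members, lists and tests were chosen with earlier results of these data known. The text gives every member's level, and the change with its error for the 2 members with the smallest p in each comparison. Of 8 genes outside the list set by their correlation with the sheath genes, 1 is not reported here. Scores and correlations are descriptions. Alternatives were pseudocounts of 0.1 and 8, other filters and scalings, sample weights, all 4 groups in a fit, a replicate block, an olfactory bulb covariate, leaving out samples, and, chosen after seeing the data, a striatal marker covariate.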

Additional observations from a re-analysis of the deposited data

Results flagged for a closer look

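Among 120 sets of 4 values (30 members in 4 groups) and the 4 sets of member scores, 3 held a sample far from the others. Chance alone gives about 1 such set in 20. Ugt8a was 673 normalized read counts in WT-Veh 1, against 1079 to 1123 in the other WT-Veh samples. Apod was 5966 in the same sample, against 2605 to 3112. WT-Veh 1 had the highest olfactory bulb score of the series, 10.11, and the lowest striatal score, 7.81. Olig1 was 1834 in HT-Flx 1, against 1624 to 1654 in the other HT-Flx samples. No member moved one way in every sample of a genotype and the opposite way in every sample of the other.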

How the results depend on the processing

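The count of members past the threshold was 0 in all 7 comparisons under every alternative run. The score difference moved by less than the SD within groups, 0.204, under each. That SD is larger than every score difference with all samples, the largest being -0.18, so staying within it does not show stability. For HT-Veh against WT-Veh the difference was -0.04 with all samples and ran from -0.18 to 0.03 over the alternatives. Leaving out single samples gave score differences of -0.14 to 0.03 for HT-Veh against WT-Veh, -0.13 to 0.10 for HT-Flx against HT-Veh, 0.04 to 0.20 for WT-Flx against WT-Veh and -0.30 to -0.07 for HT-Flx against WT-Flx. The ranges were -0.16 to -0.06 for HT against WT, 0.01 to 0.12 for fluoxetine over both genotypes and -0.26 to -0.03 for the interaction. The titles of the samples give the replicate numbers, which name different mice. The mean correlation of deviations between samples with the same number was 0.01 to 0.13, and not every pair exceeded 0.1, so the numbers were not taken to pair the samples. With the replicate block, no member passed in any comparison (0 of 30), and the score difference for HT-Veh against WT-Veh was -0.04. Every log2 change of a member given with its error kept its direction under all alternatives run. The number of members higher moved by over 1.5 times under 33 combinations of a comparison and an alternative. Over both treatments, 8 members were higher in HT, 4 without WT-Veh 1 and 5 without WT-Flx 4 or HT-Flx 1. The interaction was above 0 for 4 members, for 8 without WT-Flx 3 or HT-Veh 4, for 9 without WT-Flx 2 or HT-Flx 4, and for 2 without WT-Veh 3, WT-Flx 4 or HT-Flx 1. With sample quality weights, 5 members were higher in HT-Veh than in WT-Veh and 4 in HT than in WT over both treatments. Without the samples rich in olfactory bulb markers, 5 were higher in HT over both treatments and 10 had an interaction above 0, and with the striatal covariate 16 had one. The cause was not tested. With 4 samples a group and a median standard error of 0.14 to 0.17 on the log2 scale for the members in the pairwise fits, small changes cannot be shown.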
